A study of Arabidopsis thaliana with 24 samples.

Results

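Core histone genes encode H2A, H2B, H3 and H4, the proteins around which nuclear DNA is wound. The 40 Arabidopsis thaliana loci described here were listed by locus identifier, and each was matched to the row of the deposited table with the same identifier. Of these, 39 are among the 23826 genes of the table. The other locus, AT5G02570, an H2B gene that lies inside the annotated span of HTA12, was not analysed here. By class, 27 loci encode canonical, replication-dependent histones (5 H3.1, 8 H4, 4 H2A and 10 H2B genes). A further 12 encode replacement variants (3 H3.3, 2 H2A.X, 4 H2A.Z and 3 H2A.W genes), and 1, AT1G08170, is an H2B gene labelled seed-specific here. That is a class label: only seeds were sequenced, so specificity to seeds was not tested.

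Transcripts were measured by RNA sequencing in imbibed seeds, at 0, 6, 24 and 48 h, from wild-type Col plants and from ref6c mutants of the same ecotype. REF6 is a demethylase that removes the repressive mark H3K27me3. Both genotypes were after-ripened seed germinated on 1/2 MS medium in long days, and the 8 groups of genotype and time held 3 libraries each, 24 in all. The growth note of all samples, Col included, names ref6-1;REF6-HA seeds, and the genotypes given here are those of the sample names. Nothing states that replicates came from separate seed lots. The p-values therefore measure the spread between these libraries, which may be technical.

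Canonical histones are made mainly in S phase, when newly copied DNA is packaged, and in plants many of their promoters carry the octamer and hexamer elements first studied in cereal histone genes. Replacement variants are made through the cell cycle: H3.3 is placed at transcribed genes by HIRA, H2A.Z by the SWR1 complex, H2A.W marks heterochromatin, and H2A.X is phosphorylated at DNA breaks. A dry Arabidopsis embryo is made of cells that stopped dividing during maturation. On imbibition transcription resumes within hours, and DNA replication in the root tip starts later, around the time the radicle emerges.

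Sequences near the gene starts were read from the TAIR10.1 RefSeq genome, since promoter elements are a feature that the choice of loci did not use. In windows from 250 bases before to 50 bases after the annotated start, both strands searched, the octamer CGCGGATC was found in 9 of 40 core histone genes and in 40 of 27443 protein-coding genes (0.146%). Those 9 include 3 of 5 H3.1 genes, H4 genes AT1G07660 and AT5G59690, H2A genes HTA10 and HTA13, the H2A.W gene HTA6 and the H3.3 gene AT4G40040. The 4 octamers of the H3.1 genes, shown because these genes had the highest exon-length-scaled levels of the H3.1 genes in Col at 48 h, read as follows on the gene strand, with the octamer in capitals, 10 bases on either side and the distance of its first base from the annotated start before the colon.
AT1G09200, at -90: cgtaccttcaCGCGGATCagtgttagaa
AT1G09200, at -19: tgtgatttcaCGCGGATCgtgatagaaa
AT5G10400, at -120: taacacaggaCGCGGATCgtaaagatac
AT5G65360, at -126: ttagacgtgaCGCGGATCactaaaatta
The octamer of AT4G40040 lies on the strand opposite to the gene and is written there on the strand that carries it.
AT4G40040, at -17: tacaaaccgtCGCGGATCgctgaaataa

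No exact octamer was found in the canonical H2B genes, and octamers with a changed base were not searched for. The hexamer ACGTCA was present in 9 of 10 canonical H2B genes, in 13 of all 40 loci and in 9.19% of protein-coding genes. The 4 set under each other here, on the gene strand with the hexamer in capitals, were picked because the bases after the hexamer are alike as well.
AT2G37470, at -48: tatttaagccACGTCAtcgatcctcg
AT3G53650, at -96: gatggatgacACGTCAtcgatccgca
HTB9, at -156: caatattgacACGTCAtcgatcccgc
HTB11, at -88: aatatattccACGTCAtcaatcctcg
No octamer or hexamer was found in the window of AT1G08170, nor in those of the H2A.X and H2A.Z genes. Any of the E2F words TTTCCCGC, TTTGGCGC, TTTCGCGC or TTTGCCGC was found in 3 of 40 loci (H4 genes AT3G45930 and AT3G46320 and the H2B gene HTB2) against 1.76% of genes. The 4 words CTCTGCTC, CTCTGCTT, CTCTGTTC and CTCTGTTT, which REF6 binds, were found in 2 of 40 loci, H2AXA and AT3G09480, against 7.87% of genes. A match is a description of the letters in this window. Matches to different motifs did not overlap one another in these loci.

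**Figure D1:**
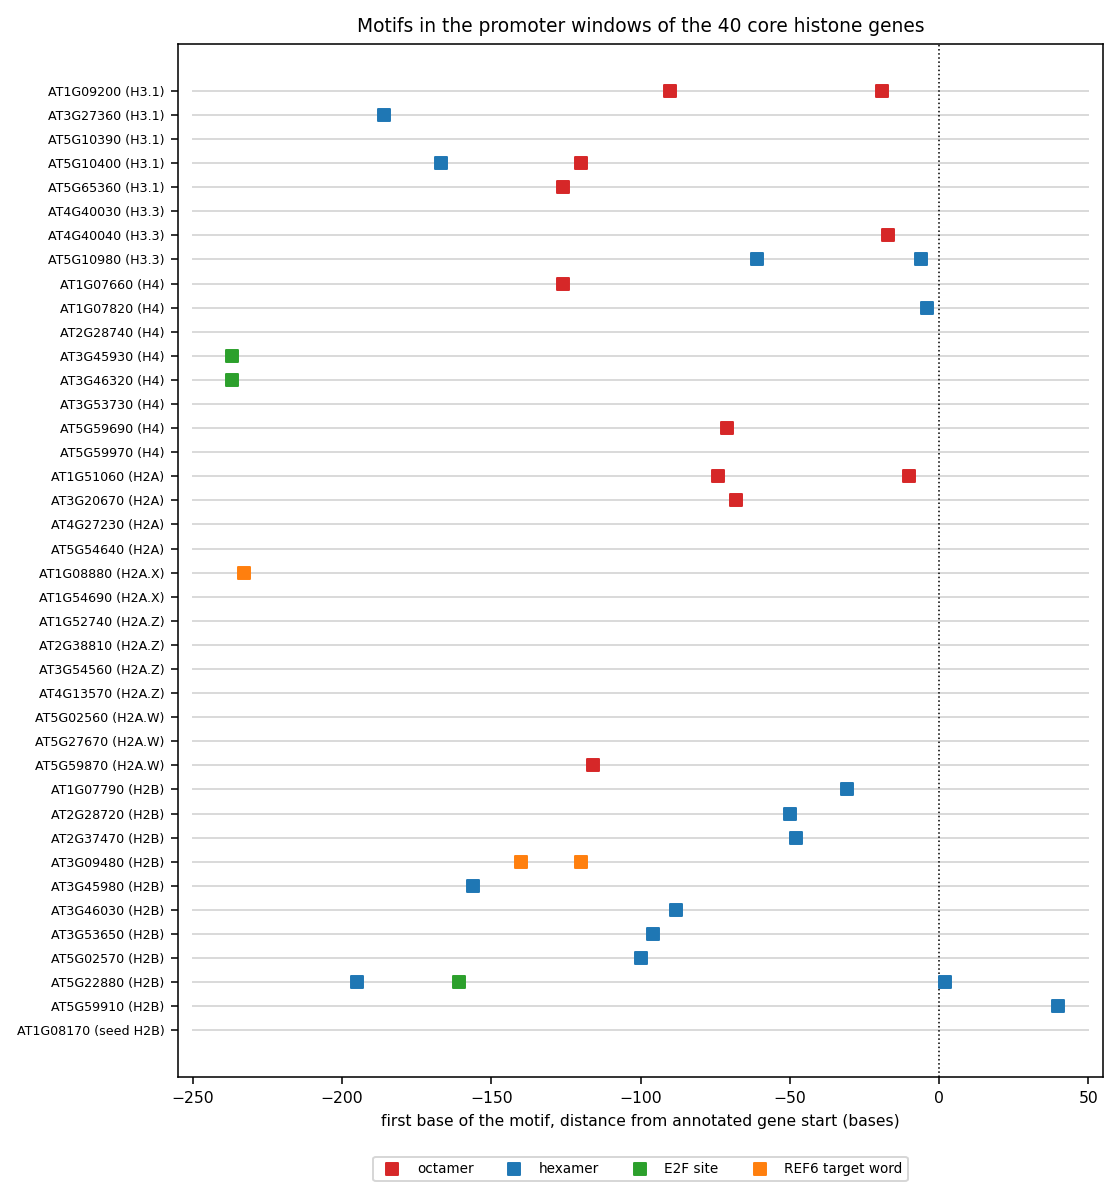
Motif positions in the promoter windows of the 40 loci, as the distance in bases of the first motif base from the annotated gene start (x axis), 1 row per gene. Octamers lie in 9 loci and hexamers in 9 of the 10 canonical H2B genes, and the row of AT1G08170 is empty.

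Shown next are 3 genes picked by their time courses. AT1G09200 is an H3.1 gene that was almost silent in dry seeds, and AT3G27360 is an H3.1 gene that fell on imbibition. The other, the H2B gene AT1G08170, fell as well. The 250 bases upstream of each are given. They run 5′ to 3′ on the gene strand up to the base before the annotated start, all 3 on the minus strand of TAIR10.1, with octamers and hexamers in capitals.
AT1G09200, chr1:2972335-2972584: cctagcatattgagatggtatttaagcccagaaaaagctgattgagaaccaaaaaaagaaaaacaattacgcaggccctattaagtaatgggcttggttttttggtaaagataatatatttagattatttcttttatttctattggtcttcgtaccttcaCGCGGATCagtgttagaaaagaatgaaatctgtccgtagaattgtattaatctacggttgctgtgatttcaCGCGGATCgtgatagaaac
AT3G27360, chr3:10129938-10130187: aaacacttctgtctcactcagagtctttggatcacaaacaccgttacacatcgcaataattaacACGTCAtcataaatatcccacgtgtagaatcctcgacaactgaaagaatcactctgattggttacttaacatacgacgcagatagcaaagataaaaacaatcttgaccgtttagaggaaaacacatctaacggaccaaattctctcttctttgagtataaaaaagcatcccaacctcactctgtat
AT1G08170, chr1:2563707-2563956: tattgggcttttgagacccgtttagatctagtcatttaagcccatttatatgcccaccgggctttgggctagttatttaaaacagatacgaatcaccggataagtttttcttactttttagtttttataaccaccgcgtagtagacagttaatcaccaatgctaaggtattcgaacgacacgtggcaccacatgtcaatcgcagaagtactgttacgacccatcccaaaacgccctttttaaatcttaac

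Gene structure followed family. In the RefSeq models all 5 H3.1 genes, all 10 canonical H2B genes, 5 of 8 H4 genes and AT1G08170 had a single exon in every model, whereas the 4 canonical H2A genes and all 12 variant genes had introns in every model. Within families the proteins were often identical: the 5 H3.1 genes encode 1 protein of 136 residues, the 3 H3.3 genes another of 136, and the 8 H4 genes 1 protein of 103. H3.1 and H3.3 differ at 4 of 136 positions. Coding sequences were less alike, with 80.3% to 89.5% identity among H3.1 genes and 78.8% to 98.1% among H4 genes. AT1G08170 encodes 243 residues against 126 to 151 in the canonical H2B proteins, to which its aligned part is 47.2% to 51.2% identical. RefSeq annotates it as an H2B domain protein of sperm cells and pollen.

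REF6 was lower in the ref6c libraries at every time. In Col it was listed at 35.1, 32.5 and 39.8 TPM (reads per gene length, scaled to 1000000 per library) at 6 h, and in ref6c at 14.4, 13.48 and 15.3. The difference of log2(TPM + 1) was -0.68 ± 0.12, adjusted p = 0.000486 at 0 h, -1.255 ± 0.12, adjusted p = 6.49e-08 at 6 h, -1.13 ± 0.12 (adjusted p = 1.93e-07) at 24 h and -0.76 ± 0.12 (adjusted p = 1.58e-05) at 48 h, by limma as throughout, with ± giving the SE of a difference and the SD of 3 libraries elsewhere. Libraries held 16624632 to 19260850 reads, as recovered from the TPM steps. Replicates within a group correlated at 0.9885 to 0.9975 across genes. TPM was scaled to whole gene spans, introns included, so levels are compared between genes only as exon RPKM (recovered reads per kilobase of annotated exon, scaled to library depth).

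Some core histone genes cannot be fully separated from other sequence. The span of AT3G27360 overlaps SDH2-1 by 328 bases, that of GAMMA-H2AX overlaps AT1G54680 by 259, and those of HTB9 and HTA4 overlap an lncRNA and a miRNA gene by 249 and 212. The 522 bases of AT5G02570 lie wholly within the span of HTA12, and HTA13 overlaps AT3G20680 by 79 bases. Whether reads were counted by strand is not given in the sources used here, so these 6 levels may hold reads of the neighbour. Among H4 genes, 28.5% of the 50-base windows of AT1G07660, 27.9% of AT3G46320, 25.7% of AT3G45930 and 19.4% of AT1G07820 occur elsewhere in the genome, and how such reads were shared out is not given either. For every other core histone gene at most 8.48% of windows do so.

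Core histone transcripts changed throughout imbibition in Col, and the summed canonical level was highest at 48 h. Summed canonical TPM was 1202 ± 43.5 at 0 h, 2840.4 ± 134 at 6 h, 3182 ± 42.8 at 24 h and 4280.0 ± 154 at 48 h (SD, n = 3). This sum adds span-scaled values, and from 0 to 6 h the median of all genes rose by 1.23 on the log2 scale. By exon RPKM the canonical H2A sum was lower at 6 h than at 0 h (243 ± 22.8 against 293 ± 8.51). Those of H3.1, H4 and canonical H2B were higher. By group mean, 17 of 26 canonical genes were highest at 48 h, against 5 of 12 variant genes. These peaks are by TPM, whose 0 to 6 h step depends on scaling, and no such count was made over all genes. AT1G08170 was highest at 0 h. Because these are bulk seeds, fewer cells of a type and less RNA per cell cannot be told apart.

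Between 0 and 6 h, 28 of 39 genes were higher in Col (background 75.0% of all 18481 genes tested) and 4 lower (9.70%). This step depends on scaling: the median of all genes rose by 1.23 on the log2 scale and scaled to the median gene 7 were higher and 22 lower, and with limma-voom on the recovered reads 19 and 11. The median core histone gene rose by 0.65, less than the median of all genes. Genes that rose well beyond it were the H2A.X gene GAMMA-H2AX (5.30 ± 0.16), the H2A.Z gene HTA8 (4.87 ± 0.10), H3.1 gene AT5G65360 (3.76 ± 0.08) and H2B gene HTB4 (3.04 ± 0.07). From 6 to 24 h 24 were higher (38.0%) and 11 lower (35.2%), and from 24 to 48 h 21 were higher (35.5%) and 8 lower (28.3%).

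**Figure D2:**
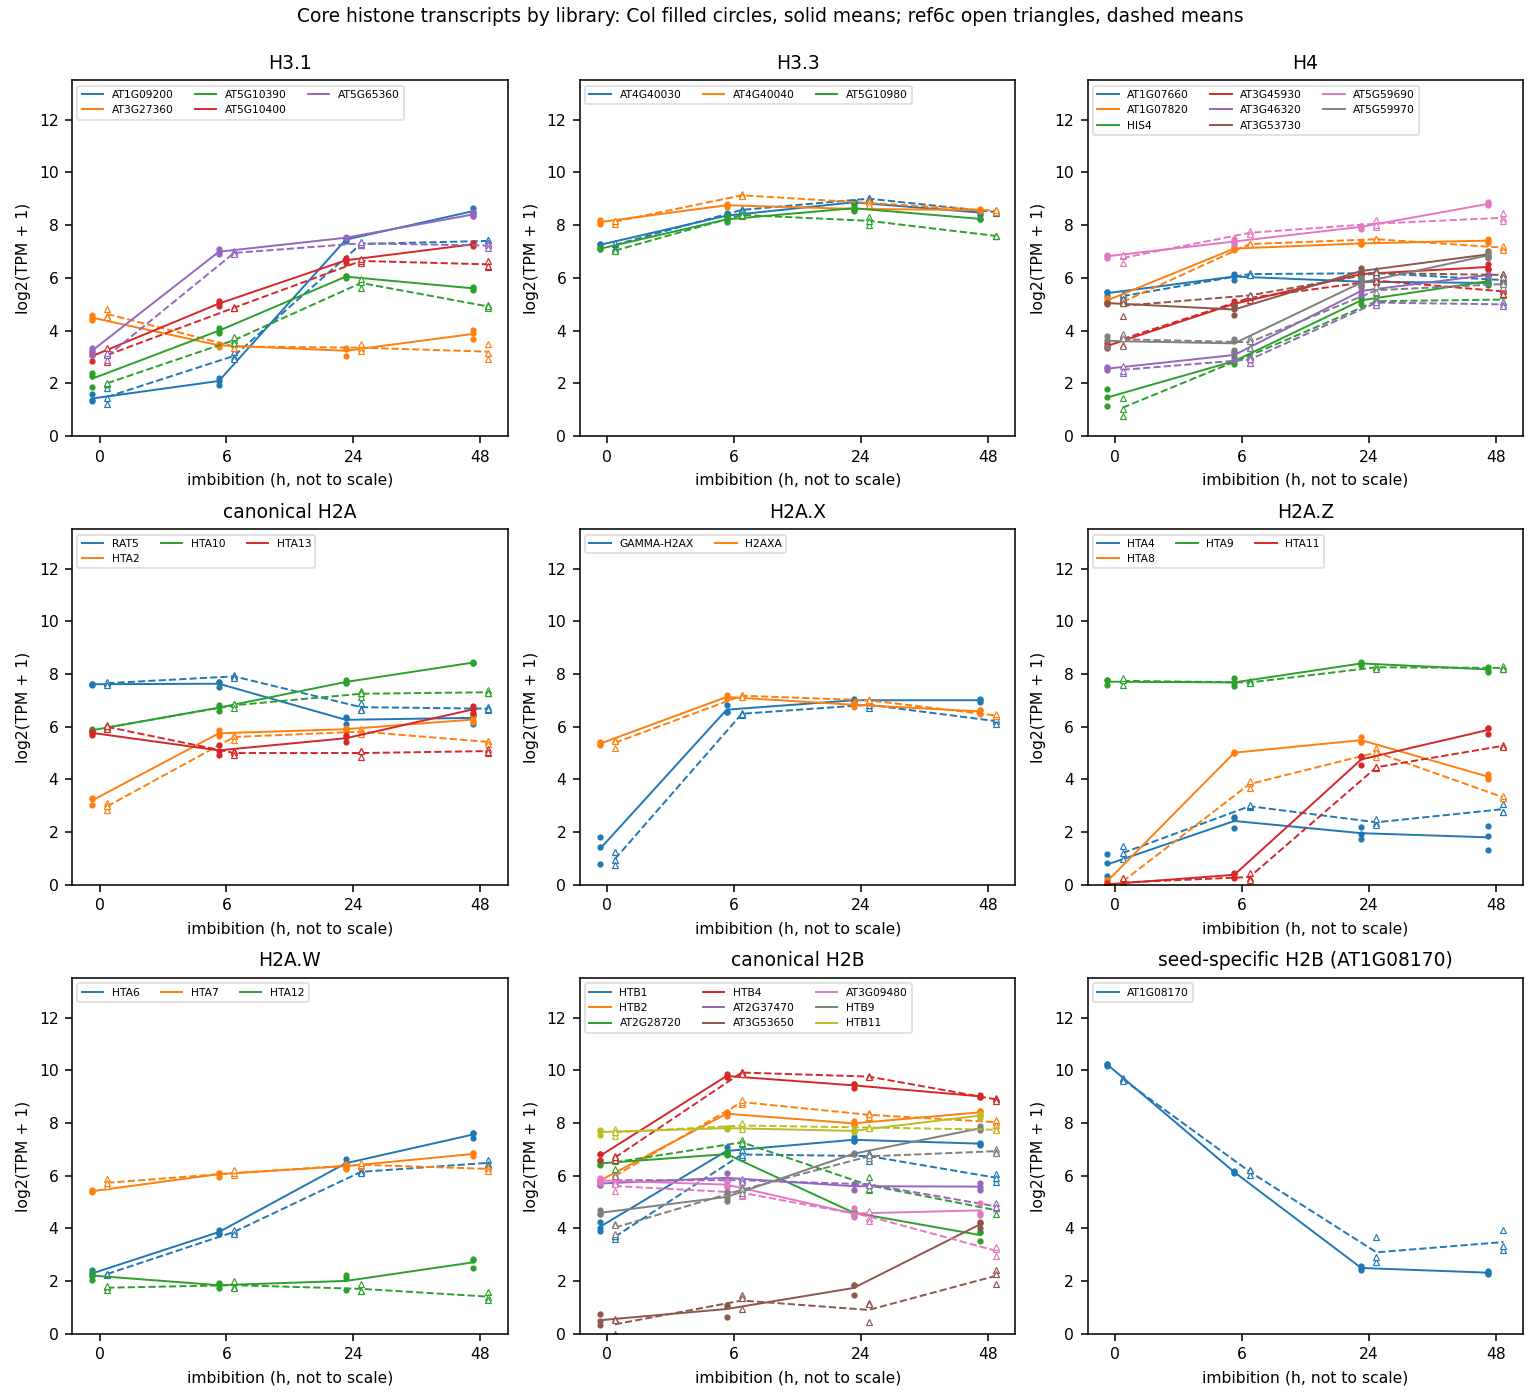
Log2(TPM + 1) of the 39 core histone genes in all 24 libraries, by family, against imbibition time. Filled circles and solid means are Col, open triangles and dashed means ref6c. The dashed means lie below the solid ones at 48 h in most panels, and AT1G08170 falls over the course in both genotypes.

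The H3.1 genes encode 1 protein but followed different courses. AT1G09200 (chr1:2971571-2972334, TAIR10.1) was listed in Col at 1.99, 1.56 and 1.49 TPM at 0 h and 3.29, 3.61 and 2.87 at 6 h. It then stood at 177, 175 and 169 at 24 h and 358, 346 and 405 at 48 h. The groups of 24 and 48 h did not overlap with each other or with the earlier times, and the steps were 5.36 ± 0.11, adjusted p = 8.32e-21 and 1.08 ± 0.11, adjusted p = 1.91e-08. AT5G65360 (chr5:26119859-26120581) was higher earlier, going from 8.65, 9.24 and 7.37 TPM at 0 h to 135, 119 and 125 at 6 h, and reached 326, 327 and 363 at 48 h. AT5G10400 and AT5G10390, which lie side by side on chromosome 5, had lower levels than these at 24 and 48 h. AT5G10400 held 6.12, 8.09 and 7.36 TPM at 0 h, 33.7, 31.7 and 29.3 at 6 h, 101, 107 and 94.5 at 24 h and 149, 155 and 157 at 48 h. AT5G10390 held 4.18, 3.83 and 2.65, then 16.1, 14.2 and 14.6, 66.3, 67.1 and 62.0 and 45.3, 48.3 and 49.3, with its highest values at 24 h.

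AT3G27360 went the other way. Its Col libraries held 20.03, 21.3 and 23.3 TPM at 0 h, 10.2, 10.1 and 9.27 at 6 h, 9.22, 8.92 and 7.20 at 24 h and 15.2, 13.9 and 12.0 at 48 h. It fell by 1.05 on the log2 scale from 0 to 6 h (adjusted p = 4.8e-08) and rose again from 24 to 48 h (0.64 ± 0.13, adjusted p = 0.00013). In exon RPKM it supplied 50.6% of H3.1 transcript in dry Col seeds and 1.49% at 48 h. AT1G09200 supplied 3.96%, 1.75%, 32.5% and 39.9% in the order of the times, and AT5G65360 19.8%, 67.6%, 34.2% and 36.5%. The largest part thus passed from AT3G27360 through AT5G65360 to AT1G09200 and AT5G65360 together. The part that reads of SDH2-1 have in the level of AT3G27360 was not tested.

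The 3 H3.3 genes were abundant already in dry seeds. In Col at 0 h their exon RPKM was 234 for AT4G40040, 138 for AT5G10980 and 128 for AT4G40030, each above the 30.3 of all H3.1 genes together. AT4G40030 was listed at 143, 155 and 156 TPM at 0 h, 468, 468 and 461 at 24 h and 337, 381 and 351 at 48 h. AT5G10980 had a like course, with 134, 141 and 134 TPM at 0 h, 435, 388 and 375 at 24 h and 300.3, 299 and 302 at 48 h. Both peaked at 24 h, while AT4G40040, with 264, 289 and 276 TPM at 0 h, was highest at 6 h (435, 445 and 416) and stood at 386, 380.1 and 373 at 48 h. H3.1 made up 5.71% ± 0.0457 of H3.1 plus H3.3 transcript (exon RPKM) at 0 h, 12.3% ± 0.392 at 6 h, 25.2% ± 0.581 at 24 h and 41.5% ± 1.66 at 48 h.

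Of the 8 H4 genes, AT5G59690 and AT1G07820 had the highest exon RPKM in Col at 48 h, with 209 and 79.1. AT5G59690 (chr5:24051474-24052218) was listed in Col at 108, 113 and 117 TPM at 0 h, 251, 249.7 and 232 at 24 h and 432, 444 and 467 at 48 h. AT1G07820 (chr1:2421089-2422066) rose from 34.0, 36.8 and 32.8 TPM at 0 h to 142, 139.96 and 131 at 6 h and stood at 159.8, 173 and 177 at 48 h. AT5G59690 rose from 24 to 48 h (0.87 ± 0.09, adjusted p = 1.54e-08) and AT1G07820 from 0 to 6 h (1.96 ± 0.06, adjusted p = 4.48e-19). HIS4, AT3G46320 and AT5G59970 were low in Col dry seeds (means of 1.80, 4.88 and 11.3 TPM) and reached 58.0, 68.1 and 115 at 48 h. AT3G45930 and AT3G53730 reached 84.4 and 118. Of the 8, AT1G07660 was highest at 6 h in Col by TPM, at 65.5 ± 5.18. Its exon RPKM was alike at 0 and 6 h (37.2 ± 2.41 and 38.7 ± 3.86).

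The canonical H2A genes RAT5, named for the resistance of its mutant to Agrobacterium transformation, and HTA10 exchanged places as the larger source of transcript. RAT5 (chr5:22196287-22197492) was listed in Col at 197, 192 and 196 TPM at 0 h, 206, 207 and 181 at 6 h, 67.2, 80.7 and 80.8 at 24 h and 84.9, 88.0 and 68.4 at 48 h, and fell by 1.37 on the log2 scale from 6 to 24 h (adjusted p = 4.03e-12). HTA10 (chr1:18926811-18927746) was listed at 56.8, 56.5 and 59.0 TPM at 0 h, 218, 204 and 200.01 at 24 h and 344, 338 and 352 at 48 h. The 48 h libraries of HTA10 all lay above those of 24 h. By exon RPKM RAT5 was already lower in Col at 6 h (131.6 ± 12.73) than at 0 h (194.9 ± 4.34). On that measure RAT5 supplied 66.6% of canonical H2A transcript at 0 h and 15.5% at 48 h, and HTA10 15.6% and 52.8%. HTA2 went from 8.23 to 76.6 TPM, and HTA13 from 53.6 at 0 h to 33.7 at 6 h and 100.3 at 48 h.

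The 4 H2A.Z genes had different courses. HTA9 (chr1:19645236-19646485) was already high, with 190.5, 216 and 220.3 TPM in Col at 0 h and 272, 311 and 284 at 48 h. HTA8 (chr2:16219220-16220928) was listed at 0.0469, 0.14 and 0.134 TPM at 0 h, from 1 to 3 reads per library, at 31.7, 31.2 and 31.3 at 6 h, 48.5, 41.9 and 42.1 at 24 h and 15.2, 17.3 and 16.2 at 48 h, so that it peaked at 24 h. HTA11 (chr3:20196140-20197726) followed a step later: it had 0 to 1 read per library at 0 h and 0.344, 0.209 and 0.363 TPM at 6 h, then 27.7, 29.0 and 22.2 at 24 h and 52.4, 61.1 and 60.7 at 48 h. Its 6 to 24 h step was 4.38 ± 0.10, adjusted p = 4.71e-20. HTA4 (chr4:7884516-7885982) stayed at a few TPM, between 0.273 and 5.04 in the Col libraries, and part of its span is shared with a miRNA gene.

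Both H2A.X genes were higher at 6 h than at 0 h. GAMMA-H2AX held 0.743, 1.72 and 2.51 TPM in Col at 0 h, 111, 94.3 and 93.7 at 6 h, 132, 126 and 124 at 24 h and 123, 133 and 128 at 48 h, so that the 3 later groups lay between 93.7 and 133 TPM. H2AXA held 38.2, 39.3 and 42.2 at 0 h and 149, 135 and 134 at 6 h. The H2A.W genes had different courses. HTA6 was listed at 3.61, 4.31 and 3.78 TPM at 0 h, 13.4, 14.4 and 12.9 at 6 h, 97.7, 89.5 and 77.7 at 24 h and 196, 174 and 194 at 48 h, with the last step not overlapping. HTA7 was listed at 41.6, 40.4 and 42.8 TPM at 0 h, 61.2, 68.2 and 68.1 at 6 h, 87.1, 82.6 and 74.8 at 24 h and 116, 107 and 114 at 48 h. HTA6 and HTA7 were called higher and HTA12 lower in the first step. By exon RPKM HTA7 was alike at 0 h (32.89 ± 1.385) and 6 h (34.57 ± 1.942). HTA12 was at or below 6.12 TPM in every Col library.

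HTB4 and HTB2 had the highest exon RPKM of the canonical H2B genes in Col at 48 h, with 240.4 and 158. HTB4 (chr5:24126877-24128162) rose in Col from 95.6, 113 and 111 TPM at 0 h to 935, 851 and 862 at 6 h, then fell to 648, 706 and 716 at 24 h and 508, 533 and 507 at 48 h. HTB2 (chr5:7651868-7652714) held 56.2, 54.3 and 54.7 at 0 h, 334, 303 and 343 at 6 h, 244, 266 and 249 at 24 h and 315, 350.1 and 352 at 48 h. HTB4 therefore peaked at 6 h, and HTB2 had like levels at 6 and 48 h. HTB9 went from 23.1 ± 1.46 to 222 ± 12.7 TPM, HTB11 from 201 ± 13.6 to 311 ± 19.5, and HTB1 from 15.7 ± 1.94 to 148 ± 3.79. By exon RPKM HTB11 was alike at 0 h (143.1 ± 10.95) and 48 h (144.9 ± 7.64), whereas HTB9 and HTB1 rose. AT2G28720 and AT3G09480 went down instead, from 87.6 ± 4.67 and 55.7 ± 3.08 at 0 h to 12.5 ± 1.75 and 25.0 ± 4.55 at 48 h. AT3G53650 was near 0 until 24 h (2.36 ± 0.478) and reached 17.5, 15.3 and 18.0 at 48 h (2.42 ± 0.20, adjusted p = 2.6e-10). AT2G37470 lay between 42.8 and 67.9 TPM, but by exon RPKM it was lower at 48 h (22.0 ± 2.186) than at 0 h (36.39 ± 2.483).

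The H2B gene AT1G08170 (chr1:2562769-2563706) supplied most H2B transcript in dry seeds and fell to a small share on imbibition. Col libraries held 1196, 1225 and 1152 TPM at 0 h, 69.5, 67.0 and 71.7 at 6 h, 4.68, 4.998 and 4.30 at 24 h and 3.93, 4.22 and 3.84 at 48 h. In ref6c they held 845, 809 and 779, 73.9, 63.7 and 74.2, 5.57, 11.6 and 6.49 and 8.10, 8.95 and 14.5 at the same times. The steps in Col were -4.08 ± 0.17, adjusted p = 1.65e-16 and -3.64 ± 0.17, adjusted p = 8.72e-15, then -0.18 ± 0.17, adjusted p = 0.38. In exon RPKM AT1G08170 made up 66.6% ± 1.69 of H2B transcript in dry Col seeds and 58.0% ± 3.1 in ref6c, and 3.69% ± 0.161 and 3.33% ± 0.335 at 6 h.

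All ref6c libraries lay below the Col libraries at 0 h and above them at 24 and 48 h. The differences were -0.55 ± 0.17, adjusted p = 0.036 at 0 h, 0.02 ± 0.17, adjusted p = 0.99 at 6 h, 0.59 ± 0.17, adjusted p = 0.0095 at 24 h and 1.16 ± 0.17, adjusted p = 4.16e-06 at 48 h. Over the 6 fits that each left out 1 library, the adjusted p was 0.024 to 0.12 at 0 h, and 5 of these 6 ended the call there. At 24 h the range was 0.0013 to 0.12, the highest without ref6c replicate 2, where the difference was 0.31. At 24 h 1 ref6c library, replicate 2, was the highest of the 6 and also had the highest summed TPM of the 6 seed storage and late embryogenesis markers (29419.8, against 15890.1 and 15178 in the others). In dry seeds these markers summed to 73019.6 ± 809 TPM in Col against 68897 ± 1956 in the mutant, and to 4467 ± 465 and 20913 ± 974 at 48 h, and 6 of 6 were higher in ref6c at 48 h. Their part in the difference of AT1G08170 was not tested. The 2 pollen markers in the table, VGD1 and GCS1, summed to 2.14 ± 0.955 TPM in Col and 0.375 ± 0.301 in ref6c at 0 h and to at most 0.340 in any library after that.

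In dry seeds few core histone genes were called between the genotypes. At 0 h 1 of 39 was higher in ref6c (background 2.07%) and 4 lower (10.6%), with a median difference of -0.02 against -0.08 over all genes. Scaled to the median gene the split turned to 6 higher and 1 lower, so the direction of small differences at this time rests on the scaling. HTB9 was lower, at 12.9, 16.9 and 16.7 TPM in ref6c against 22.3, 22.3 and 24.8 in Col, with no overlap (-0.56 ± 0.09, adjusted p = 0.000213). HTB1 (-0.37 ± 0.10, adjusted p = 0.015) and HTA12 (-0.46 ± 0.14, adjusted p = 0.029) were lower too, and HTA7 was higher (0.32 ± 0.08, adjusted p = 0.0073). All 5 genes called encode H2A or H2B proteins, and of the 16 H3 and H4 genes 3 had an unadjusted p under 0.05 by limma. Without Col replicate 2, ref6c replicate 2 or ref6c replicate 3 the count fell from 5 to 3, and without ref6c replicate 1 it was 8. The calls of HTB1, HTA12 and HTA7 each ended without 1 or more of the 6 libraries (adjusted p = 0.0084 to 0.077, 0.021 to 0.14 and 0.00064 to 0.058), whereas that of HTB9 did not (0.00022 to 0.0021).

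At 6 h 8 genes were higher in ref6c (background 5.89%) and 2 lower (10.1%). HTA8 had the smallest p: its ref6c libraries held 13.7, 14.2 and 11.77 TPM against 31.7, 31.2 and 31.3 in Col (-1.19 ± 0.10, adjusted p = 2.02e-09). AT1G09200 moved the other way, with 8.17, 6.95 and 6.62 TPM in ref6c against 3.29, 3.61 and 2.87 in Col (0.95 ± 0.11, adjusted p = 1.43e-06), a low level in both. In neither gene did the genotypes overlap. Among the H3.3 genes AT4G40040 (0.38 ± 0.06, adjusted p = 9.9e-05) and AT4G40030 (0.22 ± 0.07, adjusted p = 0.023) were higher, as were H4 genes AT3G53730 (0.54 ± 0.11) and AT5G59690 (0.33 ± 0.09), H2B genes HTB2 (0.44 ± 0.07) and AT2G28720 (0.45 ± 0.12) and the H2A gene RAT5 (0.28 ± 0.09). AT5G10390 was lower (-0.36 ± 0.10, adjusted p = 0.019). Scaled to the median gene, 4 genes were higher and 1 lower. Without ref6c replicate 1 or replicate 2 the count fell from 10 to 6. AT4G40030 and RAT5 lost their calls without any 1 of 5 of the 6 libraries (adjusted p = 0.012 to 0.12 and 0.048 to 0.18 over the 6 fits), AT5G10390 in 3 of these fits, AT5G59690 in 2 and AT2G28720 in 1. The calls of HTA8, AT1G09200, AT4G40040, AT3G53730 and HTB2 held in all 6 fits.

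At 24 h 8 genes were higher in ref6c (background 12.0%) and 11 lower (22.2%), and both directions occurred within 1 family. Among H2B genes AT2G28720 was higher, at 42.7, 61.0 and 44.6 TPM against 22.0, 23.8 and 23.95 in Col (1.04 ± 0.12, adjusted p = 4.66e-07), as was HTB4 (0.33 ± 0.07, adjusted p = 0.000761). HTB1 was lower (-0.62 ± 0.10, adjusted p = 3.5e-05), and so was AT3G53650 (-0.83 ± 0.20, adjusted p = 0.0022). AT3G53650 held only 3, 11 and 10 reads in ref6c and 23, 22 and 15 in Col. In canonical H2A, RAT5 was higher (0.48 ± 0.09, adjusted p = 0.000245), and HTA10 (-0.45 ± 0.07, adjusted p = 3.93e-05) and HTA13 (-0.56 ± 0.10, adjusted p = 0.000114) were lower. The H3.3 genes went both ways: AT4G40040 was higher, at 478, 469.8 and 431 TPM against 403, 382 and 392 (0.23 ± 0.06, adjusted p = 0.0059), AT4G40030 was not called (0.14 ± 0.07, adjusted p = 0.11), and AT5G10980 was lower, at 320.1, 253 and 288 TPM against 435, 388 and 375 (-0.48 ± 0.08, adjusted p = 2.99e-05). Of the H3.1 genes 1 of 5, AT5G65360, was lower (-0.21 ± 0.08, adjusted p = 0.047). The call of AT5G65360 ended in each of the 6 fits without 1 library (adjusted p = 0.052 to 0.13). Of the H2A.Z genes HTA8 was lower here too (-0.47 ± 0.10, adjusted p = 0.000524), as was HTA11, at 21.1, 20.9 and 21.3 TPM against 27.7, 29.0 and 22.2 (-0.30 ± 0.10, adjusted p = 0.029). The call of HTA11 ended in 5 of the 6 fits without 1 library, over which its adjusted p was 0.0047 to 0.15.

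At 48 h the core histone genes were lower in ref6c in most cases. Of 39 genes 29 were lower (background 34.1%) and 4 higher (22.1%), and the median difference was -0.70 against -0.05 over all 18481 genes. Of the 26 canonical genes 22 were lower and 2 higher (median -0.77), and of the 12 variants 7 were lower and 1 higher (median -0.58). The summed canonical level was 2721 ± 78.2 TPM in ref6c against 4280.0 ± 154 in Col.

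All 5 H3.1 genes were lower. AT1G09200 held 173, 173 and 160.3 TPM in ref6c against 358, 346 and 405 in Col (-1.13 ± 0.11, adjusted p = 1.38e-08). AT5G65360 held 158, 151 and 138 against 326, 327 and 363 (-1.18 ± 0.08, adjusted p = 1.5e-11), and AT5G10400 84.9, 99.7 and 87.0 against 149, 155 and 157 (-0.76 ± 0.10, adjusted p = 1.63e-06). The genotypes did not overlap in any of these 3 genes. AT5G10390 differed by -0.69 ± 0.10, adjusted p = 5.51e-06, and AT3G27360 by -0.67 ± 0.13, adjusted p = 9.37e-05. The H3.3 genes divided: AT5G10980 was lower, with 191, 192 and 193 TPM against 300.3, 299 and 302 (-0.64 ± 0.08, adjusted p = 1.45e-07), whereas AT4G40030 (0.02 ± 0.07, adjusted p = 0.84) and AT4G40040 (-0.03 ± 0.06, adjusted p = 0.73) were not called.

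Of the 8 H4 genes 7 were lower. AT5G59690 held 304, 348 and 282 TPM against 432, 444 and 467 in Col (-0.53 ± 0.09, adjusted p = 3.19e-05), and AT1G07820 143, 146 and 134 against 159.8, 173 and 177 (-0.27 ± 0.06, adjusted p = 0.000635). The differences of AT3G46320, AT5G59970, AT3G45930, AT3G53730 and HIS4 were -1.12, -1.09, -0.93, -0.78 and -0.70. AT1G07660, the H4 gene highest at 6 h by TPM in Col, was not called (0.11 ± 0.08, adjusted p = 0.24). Among canonical H2A genes HTA13 held 34.9, 31.4 and 32.2 TPM against 109, 90.6 and 101 (-1.58 ± 0.10, adjusted p = 3.03e-12), HTA10 167, 153 and 153 against 344, 338 and 352 (-1.12 ± 0.07, adjusted p = 4.64e-12), and HTA2 differed by -0.85 ± 0.09. RAT5, the H2A gene of dry seeds, was higher instead, at 107, 98.8 and 100.3 against 84.9, 88.0 and 68.4 (0.35 ± 0.09, adjusted p = 0.0024).

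All 3 H2A.W genes were lower at 48 h, HTA6 with 96.6, 86.7 and 83.4 TPM against 196, 174 and 194 (-1.07 ± 0.08, adjusted p = 1.37e-10), and likewise HTA12 (-1.298 ± 0.14) and HTA7 (-0.56 ± 0.08). The H2A.Z genes did not move as one. HTA8 (-0.78 ± 0.10, adjusted p = 2.45e-07) and HTA11 (-0.60 ± 0.10, adjusted p = 2.81e-05) were lower, HTA9 was not called (0.06 ± 0.08, adjusted p = 0.58), and HTA4 was higher, at 5.87, 7.37 and 5.89 TPM against 1.49, 2.62 and 3.72 (1.07 ± 0.20, adjusted p = 9.07e-05). HTA11 held 38.0, 38.5 and 37.1 against 52.4, 61.1 and 60.7. GAMMA-H2AX was lower, with 73.7, 78.3 and 68.3 against 123, 133 and 128 (-0.79 ± 0.16, adjusted p = 0.000176), and H2AXA was not called (-0.15 ± 0.08, adjusted p = 0.098).

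Among the 9 canonical H2B genes measured, 7 were lower at 48 h. AT3G53650 held 4.39, 3.85 and 2.701 TPM in ref6c against 17.5, 15.3 and 18.0 in Col (-1.96 ± 0.20, adjusted p = 1.37e-08), the largest genotype difference of any core histone gene at 48 h. AT3G09480 held 8.25, 6.82 and 8.77 against 21.7, 23.0 and 30.2 (-1.53 ± 0.13, adjusted p = 6.2e-10), and HTB1 66.8, 53.4 and 60.0 against 148, 144 and 152 (-1.29 ± 0.10, adjusted p = 1.06e-10). HTB9, AT2G37470, HTB11 and HTB2 differed by -0.87, -0.75, -0.54 and -0.37. HTB4 was not called (-0.11 ± 0.07, adjusted p = 0.17), and AT2G28720 was higher, at 22.1, 26.5 and 26.3 against 10.5, 13.6 and 13.45 (0.95 ± 0.12, adjusted p = 4.78e-07).

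**Figure D3:**
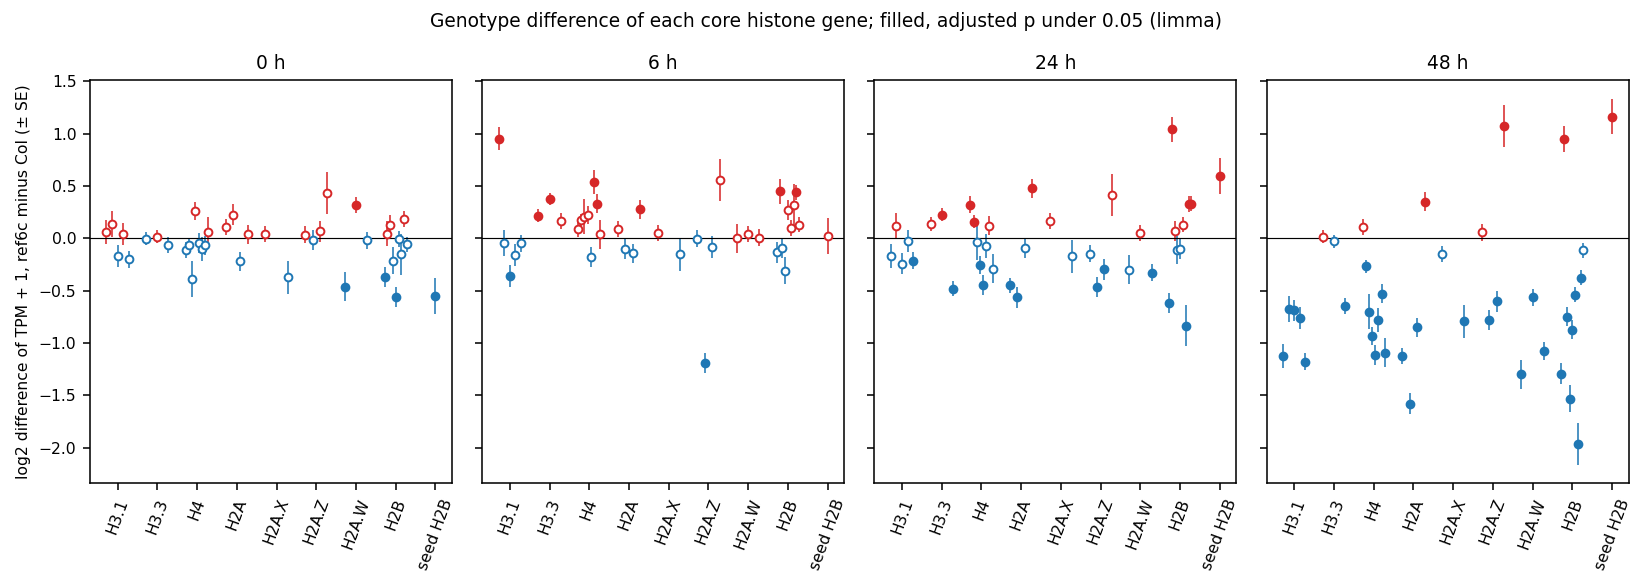
Difference between genotypes (ref6c minus Col, log2 of TPM + 1, ± SE from limma) of each of 39 genes at 0, 6, 24 and 48 h, by family, red above 0 and blue below, filled where the adjusted p is under 0.05. At 48 h 29 genes are filled below 0 and 4 above, and at 0 h 4 and 1.

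Each step was then compared between the genotypes. Within ref6c 30 genes were higher at 6 h than at 0 h (background 76.0%) and 3 lower (8.47%), with the median of all genes at 1.29, and scaled to the median gene 8 were higher and 22 lower (25 and 11 with limma-voom on the recovered reads). From 6 to 24 h 19 were higher (35.0%) and 8 lower (32.6%). From 24 to 48 h, when 21 genes were higher in Col, 5 were higher in ref6c (30.2%) and 17 lower (24.5%).

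The interaction, ref6c step minus Col step, was called in 5 genes from 0 to 6 h, 4 higher (background 5.15%) and 1 lower (2.89%). It was negative for HTA8 (-1.17 ± 0.13, adjusted p = 2.06e-06) and positive for AT1G09200 (0.89 ± 0.16, adjusted p = 0.000801), HTB9 (0.83 ± 0.13, adjusted p = 0.000191), AT3G53730 (0.64 ± 0.16, adjusted p = 0.015) and AT4G40040 (0.36 ± 0.09, adjusted p = 0.01). Scaled to the median gene 1 gene was higher and 1 lower in this interaction, and limma-voom on the recovered reads, where HTA8 and AT1G09200 were not called, gave 4 higher and none lower. From 6 to 24 h 2 were higher (5.95%) and 8 lower (9.83%). In that step HTA8 (0.73 ± 0.13, adjusted p = 0.000514) and AT1G09200 (-1.12 ± 0.16, adjusted p = 3.06e-05) moved back toward Col. The interaction of AT2G28720 was positive (0.59 ± 0.17, adjusted p = 0.019, and 0.0086 to 0.069 over the 12 fits without 1 library), that of AT3G53650 was negative (-1.15 ± 0.28, adjusted p = 0.0058), and so was that of AT5G10980 (-0.65 ± 0.11, adjusted p = 0.000151).

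From 24 to 48 h the interaction was called in 29 of 39 genes, all 29 lower in ref6c. The background was 16.2% of all genes lower and 5.78% higher. Its median was -0.67 over the 39 genes and 0.01 over all genes. Of the canonical genes 23 of 26 were called, and of the variants 6 of 12: all 3 H2A.W genes, both H2A.X genes and the H3.3 gene AT4G40040 (-0.25 ± 0.09, adjusted p = 0.039). The interactions of the H3.1 genes were -0.97 ± 0.11 for AT5G65360, -0.96 ± 0.16 for AT1G09200, -0.79 ± 0.18 for AT3G27360, -0.74 ± 0.15 for AT5G10400 and -0.45 ± 0.15 for AT5G10390. The lowest were those of AT3G09480 (-1.42 ± 0.18, adjusted p = 1.7e-06), AT3G53650 (-1.13 ± 0.28, adjusted p = 0.0043), HTA13 (-1.02 ± 0.14, adjusted p = 4.69e-06) and HTA12 (-0.999 ± 0.19, adjusted p = 0.000381). No H2A.Z gene was called, and AT1G08170 was not (0.57 ± 0.24, adjusted p = 0.1), although without ref6c replicate 2 at 24 h, the library high in seed markers, the interaction was 0.85 with adjusted p = 0.0016, and without ref6c replicate 1 at 48 h it was 0.72 with adjusted p = 0.041. Over the 12 fits that left out 1 library the adjusted p was 0.0016 to 0.32. The same range was 0.021 to 0.1 for AT4G40040 and 0.012 to 0.09 for AT5G10390, and 9 and 7 of the 12 fits ended those calls.

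The genes that rose late in Col mostly had no such rise in ref6c. AT5G65360 went from a mean of 183 to 338 TPM in Col (0.88 ± 0.08, adjusted p = 1.83e-09) and from 158 to 149 in ref6c (-0.09 ± 0.08, adjusted p = 0.39). AT1G09200 changed by 0.12 ± 0.11, adjusted p = 0.39 in ref6c over the same step. HTA11 rose in both genotypes, by 1.12 ± 0.10 in Col and 0.81 ± 0.10 in ref6c, and HTA8 fell in both (-1.39 ± 0.10 and -1.71 ± 0.10). Of 25 genes whose Col mean was higher at 48 h than at 24 h, the ref6c mean at 48 h was below the Col mean of 24 h in 16, between the Col means in 8 and above both in 1. These 25 were taken by any difference of means, so they include genes not called, such as GAMMA-H2AX (127.7 and 127.8 TPM). For such genes the split does not show a missing rise, and it was not made over all genes.

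**Figure D4:**
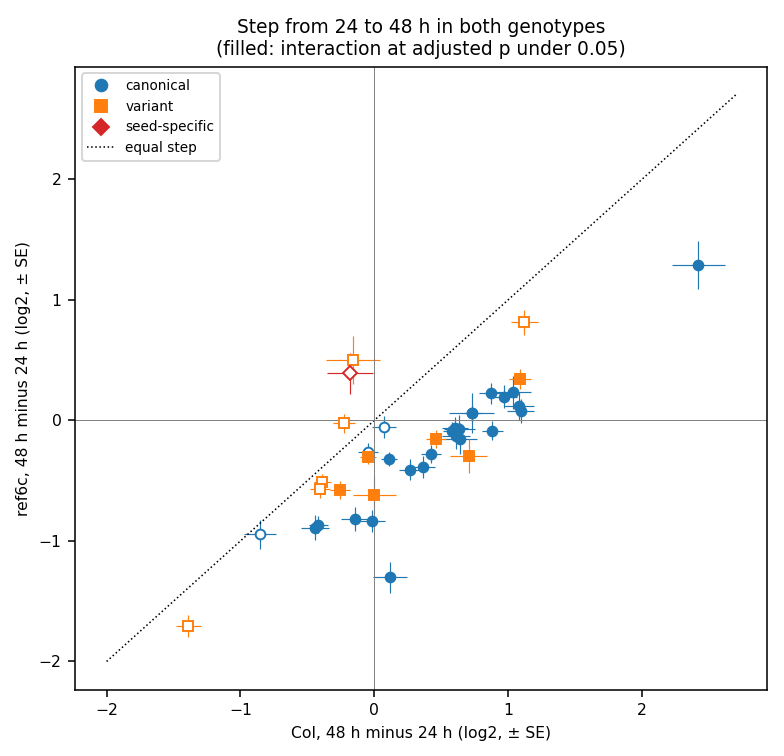
Change from 24 to 48 h in Col (x axis) and ref6c (y axis), log2 of TPM + 1 with SE on both axes, for 39 genes by class, filled where the interaction was called. The 29 filled points all lie below the dotted line of equal steps, and AT1G08170, the red diamond, lies above it unfilled.

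The balance of H3 and of H2A classes at 48 h differed between the genotypes. At that time H3.1 made up 28.1% ± 0.955 of H3.1 plus H3.3 transcript in ref6c (libraries 28.3, 28.9 and 27.0%) against 41.5% ± 1.66 in Col (41.0, 40.1 and 43.4%). At 24 h the shares were 23.5% ± 1.51 in ref6c and 25.2% ± 0.581 in Col. Within H2A transcript, H2A.W made up 14.0% ± 0.704 in ref6c and 18.2% ± 1.22 in Col at 48 h, canonical H2A 31.9% ± 1.11 and 38.7% ± 1.11, and H2A.Z 40.3% ± 1.43 and 29.3% ± 1.82. The library values did not overlap in any of these 4 shares. Summed H2A.Z level itself was 249.8 ± 12.0 exon RPKM in ref6c and 257 ± 20.7 in Col, so its larger share came with lower levels of the other classes. H2A.X shares were 13.8% ± 0.343 and 13.8% ± 0.492. AT1G08170 was at most 1.202% of H2B transcript in any library at 24 and 48 h.

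**Figure D5:**
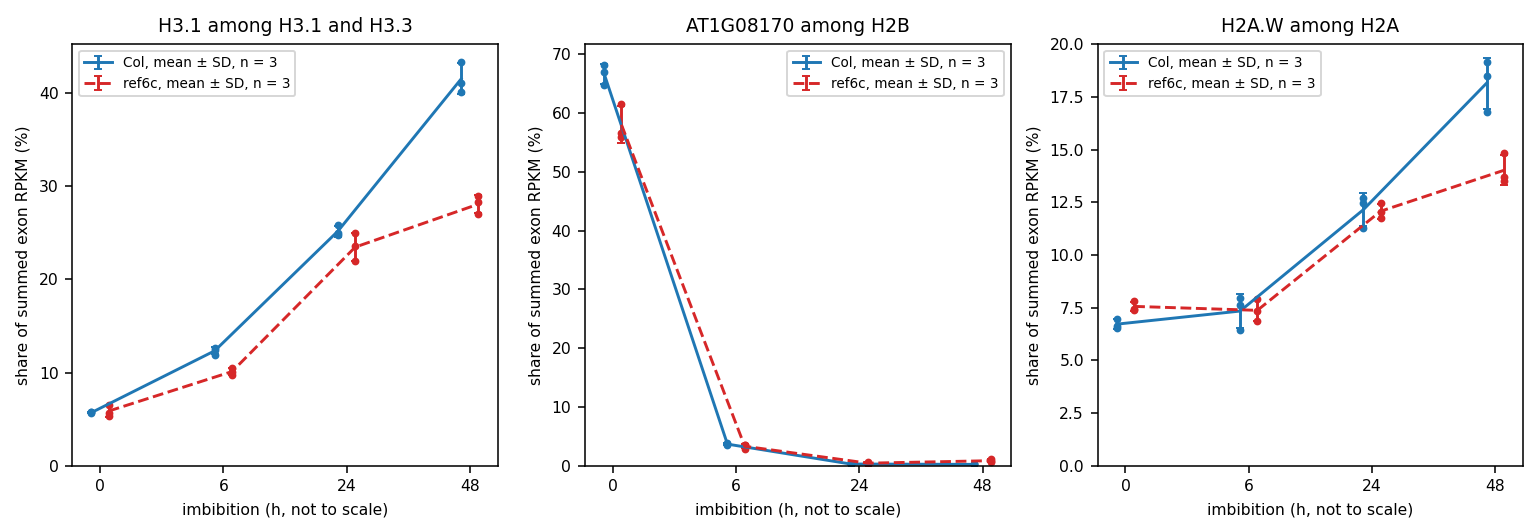
Shares of summed exon RPKM in each library (points) with group means ± SD (n = 3) over imbibition, for H3.1 among H3.1 and H3.3, AT1G08170 among H2B and H2A.W among H2A. Blue is Col and red ref6c. H3.1 reached 41.5% in Col and 28.1% in ref6c at 48 h, and AT1G08170 fell from 66.6% and 58.0% at 0 h.

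Promoter elements were set beside the late step without a test. Of the 9 octamer genes 7 were higher at 48 h than at 24 h in Col and 2 in ref6c, and of the 30 measured genes without it 14 and 3 were. The shares over all genes were 35.5% in Col and 30.2% in ref6c. At 48 h 7 of the 9 and 22 of the 30 were lower in ref6c, where 34.1% of all genes were. The 2 octamer genes not called at 48 h, AT4G40040 and AT1G07660, were highest at 6 h in Col by TPM, but alike at 0 and 6 h by exon RPKM. Of the 12 hexamer genes measured, 10 were lower at 48 h (median -0.66), and of the 27 without it 19 were (median -0.78). AT3G09480 and H2AXA, which carry REF6 words, differed at 48 h by -1.53 ± 0.13 and -0.15 ± 0.08.

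Genes that act with core histones were taken from lists of known function, and their counts are read against the shares of all genes, 34.1% lower and 22.1% higher at 48 h and 22.2% and 12.0% at 24 h. Of 17 S-phase genes tested 15 were lower in ref6c at 48 h and the other 2 were not called, with TSO2, a ribonucleotide reductase subunit (-1.02 ± 0.08, adjusted p = 3.18e-10), PCNA1, the replication clamp (-1.34 ± 0.12, adjusted p = 8.2e-10), and CDT1A, a licensing factor (-1.19 ± 0.12, adjusted p = 1.31e-08), having the smallest p. At 24 h 13 of these 17 were lower, while 7 of 26 canonical histone genes were lower and 6 higher. The 24 to 48 h interaction was called lower in 4 of the 17 S-phase genes (median -0.33). Of 19 chaperones and deposition factors 6 were lower and 3 higher at 48 h, near those shares. The H3K27 monomethyltransferase gene ATXR6 (-0.89 ± 0.10, adjusted p = 4.03e-08) and FAS1, a subunit of the replication-coupled H3.1 chaperone CAF-1 (-0.91 ± 0.11, adjusted p = 4.27e-07), were lower, and the H2A-H2B chaperone gene NAP1;1 was higher (0.56 ± 0.07, adjusted p = 7.32e-07). Of 5 other histone genes tested, 2 were higher and 2 lower, and the drought-inducible linker histone gene H1.3 had the smallest p, at 34.0, 34.6 and 40.05 TPM against 13.7, 14.5 and 13.3 in Col (1.32 ± 0.12, adjusted p = 9.69e-10).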

How the data were processed

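RNA from imbibed seeds was sequenced in 24 libraries, 3 in each of 8 groups set by the sample names. The authors deposited 1 table of TPM per gene. Per the submitters' processing notes, TAIR10 was the build, and HISAT2 2.1.10, fastp 0.20.1 and DESeq2 1.26.0 were used, with no roles given, and the read counter and strand setting are not given in the sources used here. The low values of the deposited TPM are whole multiples of 1 read over the gene span: 99.97% of 462563 values above 0 gave whole reads within 0.001, for 23641 genes matched to RefSeq TAIR10.1, with 16624632 to 19260850 reads per library. Exon RPKM divides those reads by annotated exon length.

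Log2(TPM + 1) was fitted with limma 3.58.1 (R 4.3.3, intensity trend, 8 group means, 16 residual degrees of freedom) over 18481 genes at 1 TPM or more in at least 3 libraries, which 39 core histone genes passed. A fold change on this scale understates that of low genes. Calls are at a Benjamini-Hochberg adjusted p under 0.05 over all genes tested in each of 13 comparisons. Differences and steps share groups, so their calls are not independent. Every core histone gene is named or counted. By rule the 2 genes of highest mean TPM per family, every H3.1, H3.3 and H2A.Z gene and AT1G08170 are described in more detail, with library values for most groups, and up to 3 genes per other list by smallest adjusted p. The loci and lists were chosen with earlier results of these data known.

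Also tried were median-of-ratios scaling, 0.1 as the pseudocount, all genes kept, 5 TPM as the filter, the compared groups only, a replicate block, no intensity trend, limma-voom on the recovered reads (18327 genes), a minimum of 2-fold, and each library left out. On recovered reads voom called 4, 9, 17 and 33 core histone genes between genotypes at 0, 6, 24 and 48 h. Windows and sequences were read from the RefSeq genome with Python 3.11.15 and Biopython 1.88. The fit was tested on simulated data.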

Additional observations from a re-analysis of the deposited data

Results flagged for a closer look

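The genotypes differed in how core histone genes changed between times, by the interaction term in limma (ref6c step minus Col step, log2 of TPM + 1, adjusted p under 0.05). From 0 to 6 h the step differed in 5 genes, 4 higher (background 5.15% of all genes) and 1 lower (2.89%). The difference was 0.89 for the H3.1 gene AT1G09200 and -1.17 for the H2A.Z gene HTA8 (AT2G38810). It was 0.83 for HTB9 (AT3G45980), 0.64 for the H4 gene AT3G53730 and 0.36 for the H3.3 gene AT4G40040. HTA8 held 1 to 4 reads per library at 0 h, so its first step was measured from a very low count. AT1G09200 held 12 to 25 at that time. Limma-voom on the recovered reads called neither of these genes in this interaction. Scaled to the median gene, 1 core histone gene was higher and 1 lower.

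From 6 to 24 h the step differed in 10 genes, 2 higher (5.95% of all genes) and 8 lower (9.83%). For AT1G09200 and HTA8 (AT2G38810) it had the opposite sign to that of the first step, at -1.12 and 0.73. It was -1.15 for the H2B gene AT3G53650, 0.59 for the H2B gene AT2G28720 and -0.65 for the H3.3 gene AT5G10980. AT3G53650 held 5 to 15 reads per library at 6 h.

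From 24 to 48 h the step differed in 29 genes and was more negative in ref6c in all 29, against 16.2% of all genes lower and 5.78% higher. It was -0.96 for AT1G09200, -0.97 for AT5G65360, -0.74 for AT5G10400, -0.45 for AT5G10390 and -0.79 for AT3G27360, the 5 H3.1 genes. It was -1.02 for HTA13 (AT3G20670), -0.999 for HTA12 (AT5G02560), -1.42 for AT3G09480, -1.13 for AT3G53650 and -0.25 for AT4G40040. Of 17 S-phase genes the same interaction was called lower in 4, against the same 16.2% of all genes.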

How the results depend on the processing

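The count of core histone genes called kept within 1.5 times its value in most alternatives. The direction of the 0 to 6 h steps and of the 0 h difference depends on scaling: at the median gene the higher and lower counts were 7 and 22 in Col, 8 and 22 in ref6c, and 6 and 1 at 0 h. Net changes from 0 to 48 h depend on the measure too. In Col, HTB11, HTA9, HTA12, AT4G40040 and AT1G07660 were higher at 48 h than at 0 h by TPM but did not rise by exon RPKM. Asking for at least 2-fold lowered the count between genotypes at 0, 6, 24 and 48 h from 5, 10, 19 and 33 to 0, 1, 1 and 13. It lowered the 3 Col steps to 19, 15 and 7, the later ref6c steps to 13 and 3, and the interactions to 1, 2 and 3. Median-of-ratios scaling gave 5 genes at 6 h, and 2 and 4 for the interactions from 0 to 6 and 6 to 24 h. The compared groups alone gave 1 at 0 h. With 1 library left out the genotype counts were 3 to 8, 6 to 10, 15 to 17 and 33 to 33. The Col steps gave 31 to 33, 31 to 33 and 27 to 29, the ref6c steps 33 to 34, 26 to 29 and 20 to 23, and the interactions 5 to 7, 7 to 11 and 24 to 28. Where groups kept 2 libraries, the spread was pooled over all groups. The causes were not tested, except that a fold minimum by construction removes small differences.

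Of 2237 alternative values for 141 named gene results, 2056 had the same direction and call, 173 lost the call, 8 gained it and 0 reversed. Same-numbered libraries did not deviate together in every pair (correlations of -0.11 to 0.39, 5 of 12 over 0.1), so the numbers were not taken to pair samples. A replicate block gave 5, 11, 18 and 33 genes between genotypes, 33, 33 and 29 for the Col steps, 33, 28 and 22 for the ref6c steps and 6, 10 and 29 for the interactions. Depth limits the genes near 0 at 0 h, HTA11 and HTA8 with 0 to 4 reads per library, whose fitted steps from 0 h depend on the pseudocount. It also limits AT3G53650, which held 0 to 23 reads per library at 0, 6 and 24 h.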
